A study of Mus musculus with 6 samples.

Results

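The axon guidance ligands and receptors of mouse dermal fibroblasts were followed here through the stabilization of β-catenin in culture. The genes were taken from the table of all genes by symbol and comprised the ephrins with their Eph receptors, the semaphorins of classes 3 to 7 with plexins and neuropilins, the Slits with Robo receptors, and the netrins with Unc5 receptors and Dcc. The rule found 68 of 41126 genes, 34 ligands and 34 receptors. RNA had been sequenced from 6 cultures of dermal fibroblasts of postnatal day 4 mice on a mixed CD1 and C57Bl6 background, 3 controls and 3 gain of function (GOF) cultures. By the paper, the cells came from ventral skin, were passaged before infection, and were profiled days after it. GOF cells carried Ctnnb1 Δex3/+, an allele that loses exon 3 and the phosphorylation site for degradation once Cre is delivered by adenovirus (AdCre). Control cells received adenovirus with GFP (AdGFP) and are labeled +/+ for genotype, whereas the study's methods describe control cells with the same unrecombined allele. The virus (AdGFP or AdCre) and the form of β-catenin changed together between the groups and cannot be told apart. The treatment entry reads 366 to 500 infectious units per cell (MOI) of AdCre for 6 hours in all 6 libraries, controls included. The study's methods give 366 to 500 MOI for AdCre but 366 MOI for AdGFP. A difference in dose would go with the groups and cannot be told apart either. By the labels, control replicate 0 and GOF replicate 2 came from 1 animal, control replicate 2 and GOF replicate 0 from another, and control replicate 1 and GOF replicate 1 from an animal each.

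Axon guidance molecules are short-range and long-range cues that steer growth cones by attraction or repulsion, and the same molecules direct cell migration, vessel growth and contact between cells in connective tissue. Ephrins sit on the cell surface, the A type through a lipid anchor and the B type through a membrane span, and signal by contact to Eph receptor tyrosine kinases on neighboring cells. Class 3 semaphorins are secreted and mostly act through neuropilins coupled to plexins, whereas the other vertebrate classes are mainly membrane-bound and bind plexins directly; Slits bind Robo receptors, and netrins attract through Dcc and repel through Unc5 receptors. In skin, sensory and sympathetic fibers and vessels grow through the dermis, where fibroblasts make many of these cues.

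Libraries held 35980831 to 42834467 assigned fragments. The Wnt target Axin2, a component of the β-catenin destruction complex, was at 0.152 ± 0.0218 FPKM in control and 17.5 ± 2.66 FPKM in GOF libraries (SD, n = 3; log2 fold change 6.98, SE 0.26, adjusted p = 4.95e-05). Ctnnb1 itself was at 267 ± 16.3 and 263 ± 28.8 FPKM (SD, n = 3; log2 fold change -0.05, SE 0.15, adjusted p = 0.844), and gene totals do not show whether exon 3 was lost. The paper reports its excision in AdCre cells by site-specific PCR. Among 6 fibroblast markers the summed level was 1062 to 1622 FPKM in control and 584 to 1080 FPKM in GOF libraries, and Col1a2, a chain of type I collagen, was the only 1 of the 6 called (lower). Lists of 6 markers were summed for each of 7 other cell types. Neuron markers summed to 19.5 to 28.2 FPKM in control and 11.4 to 26.1 FPKM in GOF libraries, most of it Tubb3, while Snap25, Syt1 and Rbfox3 were under 0.1 FPKM in every library, the level meant by this limit for the other lists as well. Schwann cell markers summed to 4.58 to 11.4 and 5.23 to 9.23 FPKM (log2 fold changes of the 5 tested from -0.34 to 0.26), endothelial markers to 2.50 to 2.65 and 2.55 to 5.89 FPKM (Kdr called higher, Tie1 under 0.1 FPKM), and macrophage markers to 4.73 to 7.74 and 7.08 to 11.8 FPKM (Csf1r called higher, Ptprc under 0.1 FPKM). Keratinocyte markers summed to 0.469 to 0.553 FPKM in control and 2.88 to 6.72 FPKM in GOF libraries (Dsp called higher, with Krt5, Krt14, Krt1 and Trp63 under 0.1 FPKM), melanocyte markers to 5.80 to 12.5 and 2.998 to 7.15 FPKM (Mlana called lower, with Dct and Tyrp1 under 0.1 FPKM), and skeletal muscle markers to 23.3 to 27.6 and 138 to 173 FPKM (Acta1 called higher, with Myod1 and Ckm under 0.1 FPKM). The part of other cells in the guidance genes was not tested, and in bulk cultures fewer cells of a type and less RNA per cell cannot be told apart.

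Dermal fibroblasts expressed most of the guidance repertoire. Of the 68 genes, 46 had a mean of at least 1 FPKM (fragments scaled to transcript length and library size) in a group, 14 had a mean above 10 FPKM over all 6 libraries and 10 had a mean under 0.1 FPKM. On this per-length scale the most abundant were the repellent Slit2, the plexin Plxnb2, the secreted semaphorin Sema3c, the ephrin receptor Epha3 and the neuropilin Nrp1. At the other end, 8 genes (Epha6, Epha8, Epha10, Ephb1, Sema4a, Robo4, Ntn5 and Dcc) had too few fragments to be tested, with at most 10 fragments in any library. Dcc, the attractive netrin receptor, had at most 1 fragment in a control library and 3 in a GOF library. Ephb1, Epha6 and Robo4, a Robo of vascular endothelium, were at or under 3 fragments in every library, and Ntn5 was listed at 0 throughout. Epha8 was at 0 in each control library, which allows up to 3 fragments per library, and reached 4 fragments in GOF, and Epha10 reached 4 fragments in control and 2 in GOF libraries. Among the 60 tested genes, FPKM was lowest of the controls in control replicate 0 for 38 (63.3%, against 44.0% of all genes tested) and lowest of the GOF libraries in GOF replicate 1 for 31 (51.7%, against 37.6%).

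**Figure D1:**
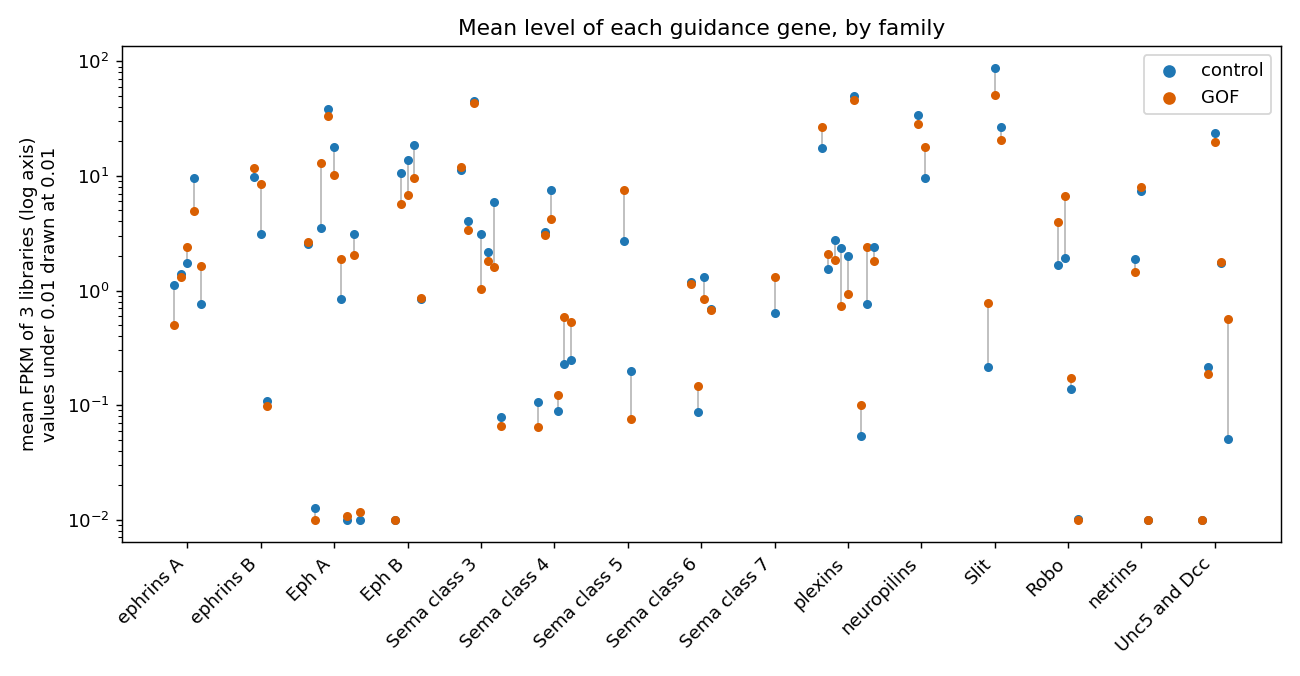
Mean FPKM of 3 libraries (log axis) for each guidance gene in control and GOF cultures, arranged by family. Slit2, Plxnb2, Sema3c and Epha3 lie the highest of their families in both groups, and genes under 0.01 FPKM are drawn at 0.01, along the bottom.

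The question the design poses is which of these genes change when β-catenin is stabilized. A gene was called when it differed more than 2-fold at an adjusted p under 0.05 in edgeR's quasi-likelihood test over 15462 genes. Of the 60 tested guidance genes 18 were called (30.0%), 11 higher and 7 lower in GOF cells, against 12.3% of all genes tested (6.69% higher and 5.64% lower). Calls numbered 20 without control replicate 0 (9 higher, 11 lower), 9 without control replicate 1 and 11 without control replicate 2, where 12.3%, 9.03% and 9.89% of all genes tested were called. They numbered 10 without GOF replicate 0, 11 without GOF replicate 1 (7 higher, 4 lower) and 16 without GOF replicate 2, where 8.30%, 10.4% and 11.9% of all genes were called. Ligands and receptors contributed 9 calls each, 5 higher and 4 lower among 32 tested ligands and 6 higher and 3 lower among 28 tested receptors. A further 5 genes passed the adjusted p alone, which 21.2% of all genes did regardless of fold, and 37 did not pass it. The median log2 fold change was -0.14 over the tested guidance genes and -0.02 over all genes tested, and the median absolute value was 0.60 and 0.34, respectively. In a fit with a term for the animal, called the animal block, the median over the guidance genes was 0.024. There 11 genes were called higher and 4 lower (25%, against 13% of all genes tested). Control and GOF FPKM values were free of overlap in 26 of the 60 (43.3%), near the 39.5% of all genes tested, and in 15 of the 18 genes called on these same libraries. With 3 libraries against 3, an exact permutation test on a single gene cannot go below p = 0.1 (two-sided).

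**Figure D2:**
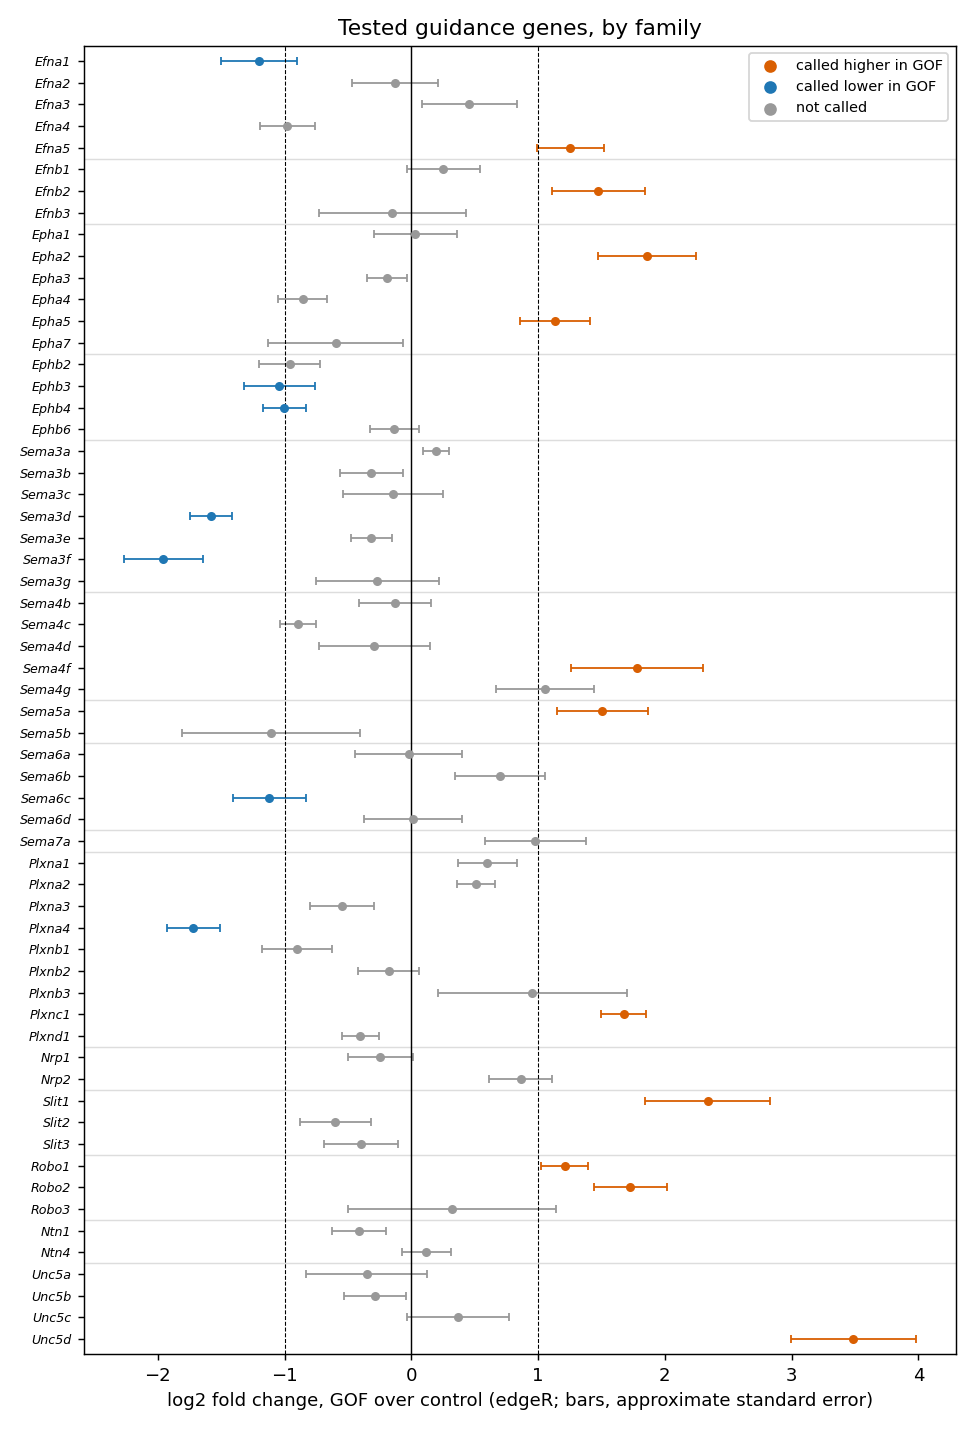
Log2 fold change of GOF over control for each tested guidance gene with its standard error (bars), from edgeR on fragments of 3 libraries per group, colored by call. Unc5d lies farthest to the right at 3.49 and Sema3f farthest to the left at -1.96.

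Because stabilized β-catenin acts through TCF/LEF factors, start sites were searched for the letters CTTTGAA and CTTTGAT on both strands. Windows of 300 bases, from 250 before to 50 after the annotated start, were found for 58 of the 68 genes (74 windows, RefSeq, GRCm38.p6). A motif was present in 3 of the 74 windows (4.05%) and in 8.65% of all 32851 windows of this length. Of the 14 called genes with a window, Epha2 alone had a motif. The 3 windows are printed 5′ to 3′ on the gene's strand with the motif in capitals, since Epha2 rose and Nrp2 and Sema3e give the comparison of genes past the adjusted p alone and not called. They lie at chr4:141300971-141301270, plus strand (Epha2, motif 209 bases upstream of the start), at chr1:62703067-62703366, plus strand (Nrp2, 146 bases upstream) and at chr5:14025026-14025325, plus strand (Sema3e, on the reverse strand, 119 bases upstream). A match of letters is not evidence of binding, and its absence from a window says nothing of the factor.
Epha2: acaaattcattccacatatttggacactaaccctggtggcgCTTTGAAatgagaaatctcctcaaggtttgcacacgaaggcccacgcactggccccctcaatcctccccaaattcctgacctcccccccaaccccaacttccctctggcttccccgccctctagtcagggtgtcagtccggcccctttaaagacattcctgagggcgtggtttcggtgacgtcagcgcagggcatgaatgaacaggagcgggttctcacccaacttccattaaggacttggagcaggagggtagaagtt
Nrp2: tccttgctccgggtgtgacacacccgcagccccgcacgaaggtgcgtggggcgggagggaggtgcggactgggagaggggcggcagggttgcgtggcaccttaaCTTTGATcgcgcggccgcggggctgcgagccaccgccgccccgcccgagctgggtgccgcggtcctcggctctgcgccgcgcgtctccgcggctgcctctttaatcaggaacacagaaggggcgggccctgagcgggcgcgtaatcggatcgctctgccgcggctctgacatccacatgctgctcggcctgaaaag
Sema3e: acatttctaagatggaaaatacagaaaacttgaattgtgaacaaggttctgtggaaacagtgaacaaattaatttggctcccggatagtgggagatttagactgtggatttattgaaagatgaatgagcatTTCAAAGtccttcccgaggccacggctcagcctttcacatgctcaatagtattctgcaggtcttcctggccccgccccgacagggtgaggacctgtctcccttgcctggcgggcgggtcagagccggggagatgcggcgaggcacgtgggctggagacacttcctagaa

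Of 8 ephrin ligands 2 were called higher and 1 lower. Efnb2, the transmembrane ephrin that marks arterial endothelium (chr8:8617434-8661242, minus strand), was at 3.66, 2.65 and 2.94 FPKM in control replicates 0, 1 and 2 and 13.4, 7.40 and 4.74 FPKM in GOF replicates 0, 1 and 2. Every GOF library was above every control library, with GOF replicate 0 the highest. The gene was 2.78-fold higher by fragments (log2 fold change 1.48, SE 0.37, adjusted p = 0.0274), a call that was lost with the animal block (log2 fold change 1.25, adjusted p = 0.0750). Efna5, a lipid-anchored ephrin with broad affinity for EphA receptors (chr17:62604184-62881317, minus strand), was at 0.918, 0.621 and 0.766 FPKM in control and 1.93, 1.30 and 1.66 FPKM in GOF libraries, in the same replicate order, without overlap (log2 fold change 1.26, SE 0.27, adjusted p = 0.0154). Efna1, first known as a cytokine-induced endothelial gene and a preferred ligand of Epha2 (chr3:89271733-89281142, minus strand), was at 1.19, 0.940 and 1.24 FPKM in control and 0.396, 0.677 and 0.431 FPKM in GOF libraries and fell without overlap (log2 fold change -1.20, SE 0.30, adjusted p = 0.0273). The most abundant A ephrin, Efna4, was at 8.70, 9.08 and 11.03 FPKM in control and 3.98, 4.55 and 6.41 FPKM in GOF libraries and passed the adjusted p but not the fold (log2 fold change -0.98, SE 0.22, adjusted p = 0.0185), and 10.5% of its exon bases are shared with a gene on the opposite strand. Efnb1, the most abundant B ephrin, overlapped between groups at 7.75, 10.7 and 11.1 FPKM in control and 12.8, 7.98 and 14.4 FPKM in GOF libraries (log2 fold change 0.25, SE 0.29, adjusted p = 0.574). Efna2, Efna3 and Efnb3 did not pass the test, with log2 fold changes of -0.13, 0.46 and -0.15.

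Among Eph receptors, called A members were higher and called B members lower in GOF cells. Epha2, a receptor of epithelial and migrating cells (chr4:141301240-141329384, plus strand), was at 3.72, 3.75 and 3.16 FPKM in control and 12.9, 6.59 and 19.3 FPKM in GOF libraries. The control libraries lay within a narrow band, and each GOF library was above it, GOF replicate 2 by the most. The difference was 3.63-fold (log2 fold change 1.86, SE 0.39, adjusted p = 0.0137). Epha5, a receptor best known from retinal and forebrain maps (chr5:84054761-84417382, minus strand), was at 0.645, 0.886 and 0.982 FPKM in control and 2.70, 1.59 and 1.33 FPKM in GOF libraries, also without overlap (log2 fold change 1.13, SE 0.28, adjusted p = 0.0259). The most abundant A receptor, Epha3, overlapped at 32.2, 41.0 and 42.7 FPKM in control and 33.4, 35.6 and 31.9 FPKM in GOF libraries (log2 fold change -0.19, SE 0.16, adjusted p = 0.430), while Epha4, which binds ephrins of both types, was at 14.9, 20.0 and 19.2 FPKM in control and 10.3, 7.88 and 12.5 FPKM in GOF libraries and passed the adjusted p alone (log2 fold change -0.86, SE 0.19, adjusted p = 0.0185). Epha1 and Epha7 did not pass the test (log2 fold change 0.03 and -0.60).

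All 4 tested Eph B receptors had negative fitted changes, also under library totals, upper-quartile and DESeq2 scaling and with the animal block, and 2 of them were called. In the main fit 7956 of all 15462 genes tested had a negative change. These settings reuse the same libraries and are no separate evidence. Ephb4, the partner of Efnb2 in arteries and veins (chr5:137350109-137378669, plus strand), was at 14.3, 20.1 and 21.7 FPKM in control and 10.99, 9.64 and 8.40 FPKM in GOF libraries. Ephb3, which sorts cells along the intestinal crypt (chr16:21204755-21223305, plus strand), was at 9.12, 14.0 and 17.9 FPKM in control and 8.90, 5.52 and 6.02 FPKM in GOF libraries. Both sets were free of overlap, although control replicate 0 came close to GOF replicate 0 for Ephb3. Ephb4 was at the edge of the fold limit (log2 fold change -1.002, SE 0.17, adjusted p = 0.00632), and Ephb3 was 2.06-fold lower (log2 fold change -1.04, SE 0.28, adjusted p = 0.0348). With the animal block both stayed past the adjusted p and fell short of 2-fold (Ephb4, log2 fold change -0.86, adjusted p = 0.00746; Ephb3, log2 fold change -0.75, adjusted p = 0.0245). Ephb2, another crypt and synapse receptor, was at 7.02, 12.1 and 12.5 FPKM in control and 6.56, 4.86 and 5.54 FPKM in GOF libraries and passed the adjusted p alone (log2 fold change -0.96, SE 0.24, adjusted p = 0.0283), whereas Ephb6, which lacks kinase activity, was at 0.893, 0.765 and 0.887 FPKM in control and 0.836, 0.824 and 0.923 FPKM in GOF libraries (log2 fold change -0.13, SE 0.19, adjusted p = 0.661). Summed over the 5 genes, Eph B levels were 43.7 ± 11.2 FPKM in control and 23.0 ± 3.70 FPKM in GOF libraries (SD, n = 3), while the 9 Eph A genes summed to 66.7 ± 9.13 and 63.3 ± 6.57 FPKM.

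The secreted class 3 semaphorins gave 2 calls among 7 tested, both lower. Sema3f, a repellent that acts mainly through Nrp2 (chr9:107681500-107710475, minus strand), was at 4.01, 6.95 and 6.87 FPKM in control and 2.26, 1.31 and 1.20 FPKM in GOF libraries. Sema3d, a cue of heart and vessel development (chr5:12383385-12588948, plus strand), was at 2.53, 3.42 and 3.40 FPKM in control and 1.10, 0.833 and 1.18 FPKM in GOF libraries. For both, each GOF library was below each control library. Sema3f was 3.89-fold lower (log2 fold change -1.96, SE 0.31, adjusted p = 0.00509) and Sema3d 2.996-fold lower (log2 fold change -1.58, SE 0.17, adjusted p = 9.94e-04). Sema3c, the most abundant semaphorin, was at 45.2, 50.9 and 38.6 FPKM in control libraries, and its GOF libraries lay on both sides of these at 33.8, 18.1 and 77.6 FPKM (log2 fold change -0.14, SE 0.39, adjusted p = 0.829). Sema3a, the classical collapsin, was at 10.2, 11.9 and 11.7 FPKM in control and 12.4, 11.05 and 12.5 FPKM in GOF libraries (log2 fold change 0.19, SE 0.10, adjusted p = 0.234), and Sema3b, Sema3e and Sema3g did not pass the test (log2 fold change -0.32, -0.32 and -0.27).

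Of the membrane semaphorins 2 were higher and 1 lower. Sema5a, which carries thrombospondin repeats and can attract or repel (chr15:32244810-32696341, plus strand), was at 1.79, 2.94 and 3.30 FPKM in control and 9.16, 9.14 and 4.26 FPKM in GOF libraries. GOF replicates 0 and 1 were far above the controls, and GOF replicate 2 was nearer to them. The gene was 2.84-fold higher (log2 fold change 1.51, SE 0.36, adjusted p = 0.0237). Sema4f, a semaphorin studied in Schwann cells and neurons (chr6:82911885-82939769, minus strand), had 42, 14 and 14 fragments in control and 75, 73 and 111 fragments in GOF libraries (log2 fold change 1.78, SE 0.52, adjusted p = 0.0478). The fragments of GOF libraries were all above those of controls, but on the FPKM scale (0.520, 0.0804 and 0.0855 FPKM in control and 0.624, 0.487 and 0.638 FPKM in GOF libraries) control replicate 0 lay among the GOF libraries. Without control replicate 0 its log2 fold change was 2.63 (adjusted p = 0.00406). Sema6c (chr3:95160457-95174024, plus strand) had 74, 138 and 119 fragments in control and 40, 58 and 57 fragments in GOF libraries and fell by 1.12 on the log2 scale (SE 0.29, adjusted p = 0.0302). On the FPKM scale its groups overlapped (1.02, 1.5 and 1.42 FPKM in control and 0.466, 1.03 and 1.03 FPKM in GOF libraries), and the call was lost with the animal block (log2 fold change -1.09, adjusted p = 0.0663). Sema4c, a plexin B ligand and the most abundant class 4 member, was at 6.29, 7.82 and 8.51 FPKM in control and 4.07, 4.33 and 4.14 FPKM in GOF libraries without overlap and passed the adjusted p alone (log2 fold change -0.89, SE 0.14, adjusted p = 0.00509), with 7.27% of its exon bases shared with a gene on the opposite strand. Sema7a, a lipid-anchored semaphorin that binds Plxnc1, was at 0.350, 0.713 and 0.839 FPKM in control and 1.56, 1.62 and 0.737 FPKM in GOF libraries and did not pass (log2 fold change 0.98, SE 0.40, adjusted p = 0.122). Sema6a, the most abundant of class 6 over all 6 libraries but below Sema6c in the control mean (1.18 against 1.31 FPKM), overlapped at 0.687, 1.15 and 1.69 FPKM in control and 1.58, 1.17 and 0.694 FPKM in GOF libraries (log2 fold change -0.02, SE 0.42, adjusted p = 0.978). The other tested members, Sema4b, Sema4d, Sema4g, Sema5b, Sema6b and Sema6d, had log2 fold changes of -0.13, -0.29, 1.05, -1.11, 0.70 and 0.01 and did not pass. Sema4g was called with DESeq2 and with the animal block.

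Plexins, the signaling receptors for semaphorins, gave 1 call in each direction among 9 tested. Plxnc1 (chr10:94790866-94944835, minus strand) was at 0.731, 0.663 and 0.888 FPKM in control and 2.79, 2.09 and 2.32 FPKM in GOF libraries. Plxna4, the neuropilin-coupled plexin for Sema3a and a receptor for class 6 semaphorins (chr6:32144268-32588192, minus strand), was at 1.88, 2.72 and 2.50 FPKM in control and 0.834, 0.565 and 0.792 FPKM in GOF libraries. Both were free of overlap with tight replicates, Plxnc1 3.20-fold higher (log2 fold change 1.68, SE 0.18, adjusted p = 0.00102) and Plxna4 3.30-fold lower (log2 fold change -1.72, SE 0.21, adjusted p = 0.00175). Plxnb2, the most abundant plexin, was at 35.3, 58.1 and 57.1 FPKM in control and 48.7, 37.0 and 51.2 FPKM in GOF libraries and overlapped (log2 fold change -0.18, SE 0.24, adjusted p = 0.633). Plxna2 and Plxnb1, a receptor for class 4 semaphorins, came near the threshold without overlap in FPKM (log2 fold change 0.51, adjusted p = 0.0509, and log2 fold change -0.90, adjusted p = 0.0532). Plxna1, Plxna3, Plxnb3 and Plxnd1 had log2 fold changes of 0.60, -0.55, 0.96 and -0.40.

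Neuropilins lack a signaling domain of their own and select the semaphorin for the plexin. Nrp2, whose promoter window is printed above, was at 6.79, 9.61 and 12.5 FPKM in control and 19.9, 20.3 and 13.0 FPKM in GOF libraries. The groups were separated by a narrow gap between control replicate 2 and GOF replicate 2, and the difference passed the adjusted p but not the fold (log2 fold change 0.86, SE 0.25, adjusted p = 0.0466). It did not pass the adjusted p with library totals (0.0731), upper-quartile scaling (0.0579), the minimum of 1 FPKM (0.0526) or limma on log2(FPKM + 1) (0.0525). Nor did it pass with the replicate number as a block, or without control replicate 0 or 1 or GOF replicate 0 or 1. The highest adjusted p over all alternatives was 0.145. Nrp1 was the more abundant at 20.0, 37.0 and 44.0 FPKM in control and 29.7, 27.5 and 28.2 FPKM in GOF libraries, with control replicate 0 the lowest of all 6 libraries (log2 fold change -0.24, SE 0.26, adjusted p = 0.540).

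In the Slit and Robo pair, 2 receptors rose while the main ligands did not pass the test. Robo2 (chr16:73891839-74411825, minus strand) was at 0.989, 2.24 and 2.55 FPKM in control and 7.19, 6.18 and 6.67 FPKM in GOF libraries. Robo1 (chr16:72308306-73046095, plus strand) was at 1.44, 1.74 and 1.85 FPKM in control and 4.04, 3.003 and 4.81 FPKM in GOF libraries. Every GOF library was above every control library for both receptors. Robo2 was 3.31-fold higher (log2 fold change 1.73, SE 0.29, adjusted p = 0.00596) and Robo1 2.31-fold higher (log2 fold change 1.21, SE 0.19, adjusted p = 0.00429). Robo3, a divergent receptor of commissural axons, was at 0.290 FPKM or less in every library and did not pass (log2 fold change 0.32). Summed over 4 Robo genes, levels were 3.75 ± 1.06 FPKM in control and 10.8 ± 1.34 FPKM in GOF libraries (SD, n = 3), and fitted changes of the 3 tested members were positive under each scaling. The scalings reuse the same libraries and are no separate evidence. Robo3 had 10, 5 and 14 fragments in control and 4, 4 and 30 fragments in GOF libraries. Its log2 fold change ran from -1.28 to 0.75 over the fits that left out 1 library. In the main fit 7506 of all 15462 genes tested had a positive change.

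Slit2, the most abundant guidance gene, was at 56.8, 95.6 and 107 FPKM in control and 68.7, 43.9 and 39.5 FPKM in GOF libraries. GOF replicate 0 lay between control replicates 0 and 1, so the groups overlapped, and the change did not pass (log2 fold change -0.60, SE 0.28, adjusted p = 0.176). Slit3 was at 27.2, 23.3 and 29.8 FPKM in control and 32.2, 16.6 and 12.6 FPKM in GOF libraries (log2 fold change -0.40, SE 0.29, adjusted p = 0.375). Slit1, the form best known from the brain (chr19:41600257-41743665, minus strand), was at a far lower level, with 17, 41 and 39 fragments in control and 245, 69 and 191 fragments in GOF libraries. By fragments each GOF library exceeded each control library, whereas by FPKM (0.0940, 0.355 and 0.201 FPKM in control and 1.08, 0.325 and 0.946 FPKM in GOF libraries) GOF replicate 1 lay below control replicate 1. It was 5.05-fold higher (log2 fold change 2.34, SE 0.49, adjusted p = 0.0148), and without GOF replicate 0 it no longer passed (log2 fold change 1.98, adjusted p = 0.0589).

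Of the netrins and the Unc5 and Dcc receptors, Ntn4, Ntn1, Unc5b and Unc5c had a mean of at least 1 FPKM in a group. None of these passed the test. Ntn4, a laminin-binding netrin of basement membranes, was at 8.05, 6.89 and 6.99 FPKM in control and 8.61, 5.70 and 9.60 FPKM in GOF libraries (log2 fold change 0.12, SE 0.19, adjusted p = 0.707). Ntn1, the founding member, was at 1.53, 2.23 and 1.92 FPKM in control and 1.22, 1.54 and 1.61 FPKM in GOF libraries (log2 fold change -0.41, SE 0.21, adjusted p = 0.216). Unc5b, the repulsive receptor of vessels, was at 22.1, 26.0 and 22.6 FPKM in control and 20.7, 13.7 and 24.8 FPKM in GOF libraries and overlapped (log2 fold change -0.29, SE 0.25, adjusted p = 0.447). Against these levels Unc5d (chr8:28646717-29219636, minus strand) was scarce, with 11, 21 and 37 fragments in control and 311, 338 and 137 fragments in GOF libraries, or 0.0277, 0.0454 and 0.0789 FPKM in control and 0.660, 0.714 and 0.317 FPKM in GOF libraries. All GOF libraries stood well above all controls. Its fold change, 11.2, was the highest of the tested guidance genes (log2 fold change 3.49, SE 0.49, adjusted p = 0.00320), at a mean below 1 FPKM in both groups. Unc5a and Unc5c had log2 fold changes of -0.35 and 0.37 and did not pass.

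**Figure D3:**
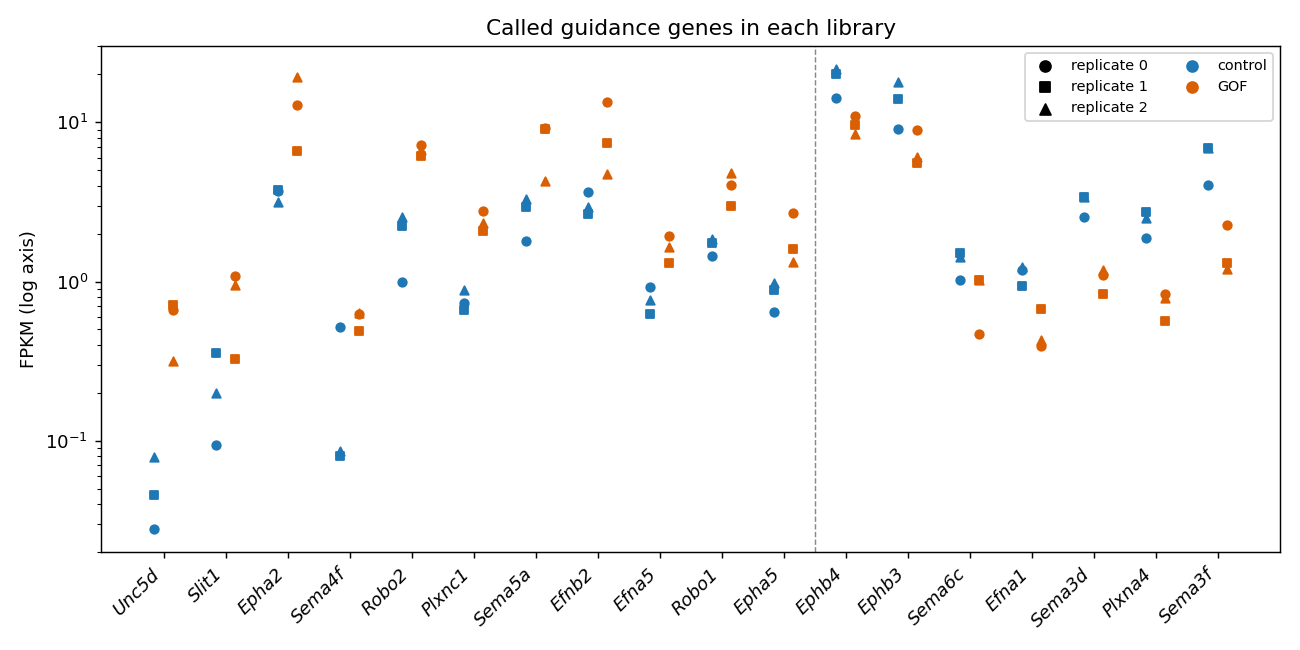
FPKM of the called guidance genes in each of the 6 libraries (log axis), colored by group, with 1 marker shape per replicate number and genes called higher to the left of the dashed line. Robo2 and Plxnc1 are clear of overlap, while in Sema4f control replicate 0 lies among the GOF libraries.

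The 18 calls differed in how far they rested on single libraries. Epha2, Sema3d, Sema3f, Plxna4, Plxnc1, Robo1, Robo2 and Unc5d were called in each of the 6 fits that left out 1 library. Among these 6 fits Slit1 was lost only without GOF replicate 0. Its call was also lost with limma on log2(FPKM + 1) or log2(FPKM + 0.1) and with the replicate number as a block. Efna1 (adjusted p 0.0246 to 0.101 over these fits) was lost without control replicate 1 or 2 or GOF replicate 0 or 2, and Efna5 (0.0106 to 0.0692) without control replicate 1 or 2 or GOF replicate 0. Efnb2 (0.00623 to 0.0948) was lost without control replicate 1 or 2 or GOF replicate 0 or 1, Sema5a (0.00485 to 0.0884) without control replicate 0 or 1 or GOF replicate 0 or 1, and Epha5 (0.0103 to 0.0926) in each fit except the one without GOF replicate 2. Sema4f (0.00406 to 0.144) and Sema6c (0.0201 to 0.123) were lost in each fit except the one without control replicate 0. Ephb3 (0.00917 to 0.107) was lost without control replicate 1 or 2 or GOF replicate 1 or 2, and Ephb4 fell short of 2-fold without the same libraries while its adjusted p stayed between 0.00197 and 0.0287. Ephb2 (log2 fold change -1.20, adjusted p = 0.00300), Sema4c (log2 fold change -1.01, adjusted p = 0.00242), Efna4 and Plxnb1 were gained as lower calls without control replicate 0. Nrp2 was gained as a higher call without control replicate 2 (log2 fold change 1.07, adjusted p = 0.0378) or GOF replicate 2 (log2 fold change 1.05, adjusted p = 0.0232). Epha4 (log2 fold change -1.02, adjusted p = 0.0146) and Efna4 (log2 fold change -1.24, adjusted p = 0.00484) were gained as lower calls without GOF replicate 2. Of the 5 genes past the adjusted p alone, Sema4c passed it in all 15 alternatives, Efna4 in 10, Epha4 in 9, Ephb2 in 8 and Nrp2 in 6.

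Control and GOF cultures of 1 animal could be compared directly in 2 animals. As log2 ratios of FPKM + 0.1, Robo2 was at 2.64 and 1.46, Epha2 at 2.34 and 1.99, Plxnc1 at 1.54 and 1.55, and Unc5d at 1.71 and 2.09 in the animal of control replicate 0 and that of control replicate 2. Sema3f was at -1.66 and -1.56, Sema3d at -1.04 and -1.55, and Plxna4 at -1.15 and -1.47. The sign of the fit was seen in both animals for 17 of the 18 called genes, against 23 of the 42 not called, 99.5% of all genes called and 70.6% of all genes tested. The calls were made on a fit that includes these 4 libraries, so this is no separate evidence. Sema6c was the exception, at 0.02 in the animal of control replicate 0 and -1.42 in the other. Efnb2 and Sema4f had the sign of the fit in both but were uneven, at 0.36 and 2.15 and at 0.25 and 1.96.

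**Figure D4:**
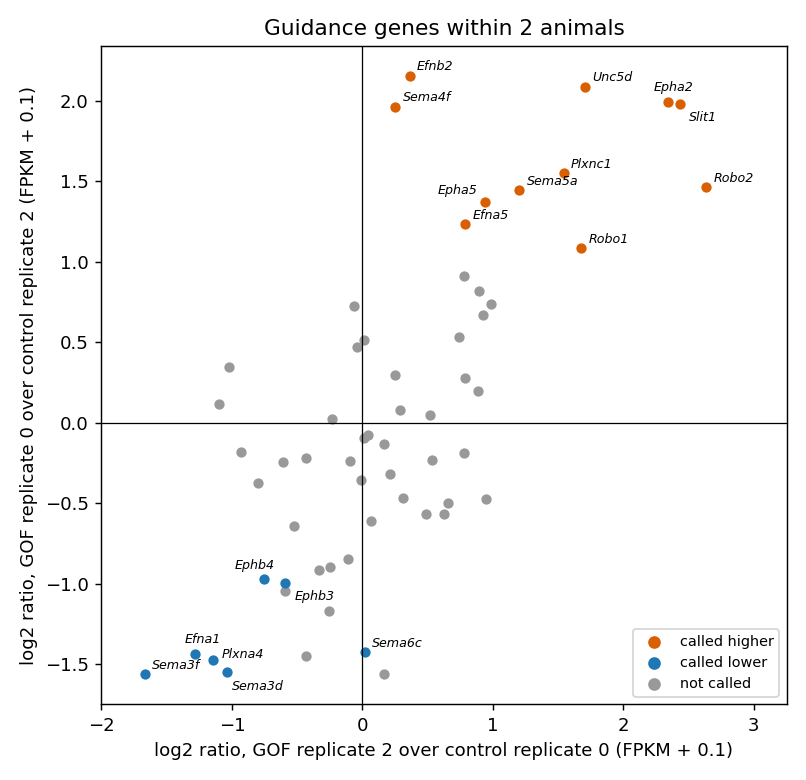
Log2 ratio of GOF over control within the animal of control replicate 0 (horizontal) and within the animal of control replicate 2 (vertical) for each tested guidance gene, on FPKM + 0.1. The called genes other than Sema6c lie in the quadrant of their call.

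Several members are neighbors in the genome. Robo1 and Robo2, 846 kb apart on chromosome 16, both rose. On chromosome 3, Efna1, Efna3 and Efna4 lie within a cluster with gaps of 32.8 and 10.4 kb and differed in their log2 fold changes (-1.20, 0.46 and -0.98). On chromosome 9, Sema3f fell while Sema3b, 72.3 kb away, did not pass (-1.96 and -0.32). On chromosome 5, Sema3d fell while Sema3a, 536 kb away, and Sema3e, a further 423 kb away, did not pass. The libraries were made with a strand-specific kit, but how strand was used in counting is not given in the sources used here, and at least 5% of the exon bases of 6 members (Efna3, Efna4, Epha1, Plxna1, Sema4c and Ntn5) are shared with a gene on the opposite strand, for which the levels are uncertain.

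The molecules that work with these families were examined in a list of 81 genes in 4 roles. Of 77 tested, 8 were higher and 1 lower (11.7%, against 12.3% of all genes tested). Among 18 tested co-receptors and other receptors 3 were higher. Flrt3, an adhesion protein that binds Unc5 and Robo receptors, was at 1.46, 1.63 and 1.96 FPKM in control and 7.78, 5.66 and 11.9 FPKM in GOF libraries (log2 fold change 2.31, SE 0.24, adjusted p = 9.45e-04). Kdr, the VEGF receptor that partners with neuropilins and is also 1 of the endothelial markers above, was at 0.355, 0.704 and 0.984 FPKM in control and 2.59, 1.72 and 2.70 FPKM in GOF libraries (log2 fold change 1.77, SE 0.34, adjusted p = 0.0110). Dscam, an adhesion molecule that also binds netrin, had 4, 1 and 4 fragments in control and 73, 49 and 11 fragments in GOF libraries (log2 fold change 3.78, SE 0.82, adjusted p = 0.0167). In these 3 genes the GOF libraries exceeded the controls, and Dscam was lost without control replicate 1 or GOF replicate 0. Among 11 tested other ligands and matrix cues 1 rose and 1 fell. Gpc1, a heparan sulfate proteoglycan that binds Slits, was at 20.6, 24.6 and 27.0 FPKM in control and 84.3, 74.6 and 95.9 FPKM in GOF libraries (log2 fold change 1.78, SE 0.17, adjusted p = 7.48e-04). Cxcl12, a chemokine that steers axons and leukocytes, was at 33.4, 68.9 and 114 FPKM in control and 8.82, 5.88 and 2.40 FPKM in GOF libraries (log2 fold change -3.64, SE 0.56, adjusted p = 0.00427). The GOF libraries did not overlap the controls in either gene. Among 40 tested cytoplasmic transducers 4 were called, all higher. They were Ablim3, an actin-binding LIM protein (log2 fold change 3.29), Mical2, an actin-oxidizing enzyme (1.08), Rnd1, a GTPase that binds plexins (1.74), and Vav3, an exchange factor downstream of Eph receptors (2.95), the last named after its values were seen. None of 8 tested proteases that cleave the ligands or receptors was called by edgeR or DESeq2, 3 had an unadjusted p under 0.05, and Adam17 alone passed the adjusted p (log2 fold change -0.64).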

How the data were processed

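RNA of 6 cultures was made into libraries with a strand-specific TruSeq kit and sequenced on an Illumina HiSeq. The submitters' processing notes name TopHat, Cuffdiff and mm10; versions and the annotation are not given in the sources used here. The deposited table gives, per gene and library, Cuffdiff's estimated counts of fragments (4.95% of values not whole) and FPKM, which the authors' program scaled by library and transcript length. A second deposited table, of long noncoding RNAs, and 2 unused per-library columns were left out, as were 32 genes with a failed estimate. Gene symbols and positions came from GENCODE on GRCm38 (97.9% of identifiers matched).

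Estimated counts were rounded, filtered by filterByExpr (15462 genes kept) and fitted by edgeR's quasi-likelihood test (version 4.0.16, R 4.3.3) with TMM scaling and Benjamini-Hochberg adjustment over all genes kept. Standard errors were derived from the F statistic and are approximate. A call required an adjusted p under 0.05 and a fold over 2. The script was tested on simulated data. Group means are given ± SD over 3 libraries, and p-values measure the spread between cultures, which came from 4 animals. The animal numbers in the labels pair 2 control with 2 GOF libraries, and deviations from the group means correlated within both pairs (r = 0.41 and 0.46 across genes, which are not independent). Deviations within a group are tied to each other, so r alone cannot show this pairing, which rests on the labels. Totals of 35980831 to 42834467 fragments set the precision, and the limit that a count of 0 allows was taken as 3 fragments per library, for counting error only.

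All called members are named, those with a mean of at least 1 FPKM in a group with every library, together with the most abundant tested member of each family, members past the adjusted p alone, and up to 3 called partner genes per role, with Vav3 added to these after its values were seen. Members, markers and partner lists were chosen with earlier results of these data known. Alternatives were DESeq2 1.42.0, library totals, upper-quartile scaling, no filter, an FPKM of at least 1 in 3 libraries, limma 3.58.1 on log2(FPKM + 1) or log2(FPKM + 0.1), a replicate block and leaving out each library.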

Additional observations from a re-analysis of the deposited data

How the results depend on the processing

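No called guidance gene changed sign in any of the 9 other settings in which it was tested or in the 6 fits without 1 library, and Epha2, Sema3d, Sema3f and Robo2 kept their calls in all of them. The 18 calls became 18 with DESeq2 (12 higher, 6 lower), 20 with library totals (11 and 9), 19 with upper-quartile scaling (10 and 9), 18 of 67 without a filter, and 13 (8 and 5) with limma on log2(FPKM + 0.1). Of all genes tested, 13.2%, 12.4%, 12.5%, 8.72% and 10.9% were called in these settings, in the same order. With DESeq2, 17 of the calls were shared, Sema4g was gained, and Ephb4 fell short of 2-fold (log2 fold change -0.99). Ephb4 kept its call in only 3 of the 9 other settings. Under the minimum of 1 FPKM, 13 of 44 were called (8 and 5) and 1271 of 12228 of all genes; Efna1, Sema4f, Slit1 and Unc5d were not tested there. With limma on log2(FPKM + 1), which shrinks low genes, 6 were called (4 higher, 2 lower), the median log2 fold change was -0.017, and 877 of all genes were called instead of 1906.

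With the replicate number as a replicate block 11 were called (7 higher, 4 lower), or 18.3% against 9.19% of all genes tested. Of the 18 calls, 8 were lost there (Efna1, Epha5, Ephb3, Ephb4, Sema4f, Sema5a, Sema6c and Slit1), and Efna4 was gained. Deviations of same-numbered libraries from their group means correlated at r = -0.41, 0.05 and -0.44 across genes. Deviations within a group are tied to each other, so r cannot show whether same-numbered libraries shared a batch. The replicate block by animal has a single residual degree of freedom. Control replicate 1 and GOF replicate 1 are each alone in their animal, so its group difference rests on the 2 animals found in both groups. Under this block 15 were called (11 higher, 4 lower), or 25% against 13% of all genes tested, and the median was 0.024. Efnb2, Ephb3, Ephb4 and Sema6c lost and Sema4g gained a call.

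Leaving out 1 library at a time gave 9 to 20 calls, 5 to 11 higher and 3 to 11 lower, with a median of -0.18 to -0.031. These fits rest on fewer samples. Over the same fits 1311 to 1961 of all genes and 8 to 12 partners were called. Values of Unc5d, Slit1, Sema4f, Sema6c and Efna1 rest on few fragments and are limited by depth. Efna1 had 66, 64 and 78 fragments in control and 25, 40 and 28 fragments in GOF libraries.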
